A study of Mus musculus with 2 samples.

Results

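The genes described here are 10 genes that supply and assemble MHC class I molecules, the surface proteins that present peptides from inside a cell to CD8+ T cells. They were H2-K1, H2-D1, B2m, Tap1, Tap2, Tapbp, Psmb8, Psmb9, Psmb10 and Erap1, taken by name together with each of their probes whose transcript accession led to one of these symbols. That gave 16 probes in 34 spots for 10 of 17174 genes named on the array. The study compared CD4+ helper with CD8+ cytotoxic T cells, both sorted from the spleen of wild-type C57B6 mice, with 1 array for each cell type. Both samples carry the same strain and wild-type labels, with no further treatment beyond the sort. How old and how many the mice were, whether they were pooled, and which markers were used for sorting were not stated by the labels. With 1 array per cell type there was no replicate of either, so no p-value between the cell types could be had, and every difference below compares 2 arrays.

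In class I presentation, proteasomes cut cytosolic proteins into peptides, and interferon replaces the catalytic subunits of the standard proteasome by those of the immunoproteasome. The TAP transporter carries the peptides into the endoplasmic reticulum, where the peptidase ERAP1 trims them. Tapasin holds an empty class I heavy chain, already paired with beta-2-microglobulin, beside the transporter until a peptide fits. All nucleated cells use this route, T cells included, and lymphocytes are known for high class I levels.

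The 10 genes were all well above background on both arrays, and in the main scaling 10 of 10 had the higher value on the CD8+ array, against 54.1% of the 11954 genes measured on both arrays. The sizes were small. The median log2 difference of the 10 genes, CD8+ array minus CD4+ array, was 0.28, with a range from 0.07 for Psmb9 to 0.86 for Tap2, and the median over all genes was 0.03. At least 2-fold apart were 0 of 10 genes in either direction, where 1.94% of all genes passed in favour of the CD8+ array and 3.81% in favour of the CD4+ array. At least 1.5-fold higher on the CD8+ array was 1 of 10, Tap2, against 5.54% of all genes, and 0 of 10 were at least 1.5-fold higher on the CD4+ array, against 8.51%. With saturated probes left out, 9 of 9 genes were higher on the CD8+ array against 53.8% of all genes, and 1 of 9 was at least 1.5-fold higher against 5.57%. Without any scaling between the arrays 7 of 10 genes had the higher signal on the CD8+ array, and 27.6% of all genes did.

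The upstream sequences below show what the heavy chain, light chain and transporter genes share before their start sites. They are the RefSeq sequences of build GRCm38.p6, written from 5′ to 3′ on the strand given, and each of the first 3 holds the 250 bases before a gene's annotated start. The H2-K1 stretch is chr17:34000348-34000597 on the minus strand, that of H2-D1 chr17:35262844-35263093 on the plus strand and that of B2m chr2:122147437-122147686 on the plus strand. The fourth is the whole stretch of 225 bases between the starts of Tap1 and Psmb9, which are read in opposite directions, at chr17:34187331-34187555 on the plus strand of Tap1. Capitals mark matches, on either strand, to a kappaB site (GGGATTCCC), an interferon response sequence of class I genes (TTTCACTT), an interferon-stimulated response element (GAAANNGAA), a gamma-activated site (TTCNNNGAA), a CREB core sequence (TGACG) and a CCAAT box (CCAAT).
H2-K1: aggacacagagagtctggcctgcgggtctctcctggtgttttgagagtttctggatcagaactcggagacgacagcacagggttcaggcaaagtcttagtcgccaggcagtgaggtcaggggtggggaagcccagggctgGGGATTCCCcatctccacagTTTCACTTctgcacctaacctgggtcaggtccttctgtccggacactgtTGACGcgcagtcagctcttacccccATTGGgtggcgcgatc
H2-D1: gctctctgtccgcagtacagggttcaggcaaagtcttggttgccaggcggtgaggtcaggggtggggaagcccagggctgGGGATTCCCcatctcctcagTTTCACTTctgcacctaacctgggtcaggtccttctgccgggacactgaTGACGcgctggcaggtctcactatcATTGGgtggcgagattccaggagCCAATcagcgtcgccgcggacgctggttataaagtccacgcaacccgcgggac
B2m: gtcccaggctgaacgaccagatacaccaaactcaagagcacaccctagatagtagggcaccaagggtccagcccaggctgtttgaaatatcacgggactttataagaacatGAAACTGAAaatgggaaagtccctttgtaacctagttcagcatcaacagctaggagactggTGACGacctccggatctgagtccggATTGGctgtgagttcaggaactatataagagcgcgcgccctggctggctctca
Tap1-Psmb9: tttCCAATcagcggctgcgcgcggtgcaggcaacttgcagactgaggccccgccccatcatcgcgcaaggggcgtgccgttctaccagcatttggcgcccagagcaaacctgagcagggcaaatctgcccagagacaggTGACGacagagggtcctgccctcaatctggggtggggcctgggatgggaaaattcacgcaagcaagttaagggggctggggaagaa

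The H2-K1 and H2-D1 sequences matched at 161 of 177 aligned positions without a gap (91.0%), and the aligned block began 178 bases before the H2-K1 start and 238 bases before the H2-D1 start. Both held the kappaB site, the interferon response sequence, the CREB core sequence and the CCAAT box in the same order. Over all 32851 upstream stretches of 250 bases, 0.301% held the kappaB letters and 1.36% the interferon response letters. Of the 9 genes with a sequence, 5 held the CREB core sequence (17.8% of all stretches) and 6 the CCAAT box (33.8%). Tap1 and Psmb9 share these sites in the stretch between them, so each site was counted for both genes. Since the H2-K1 and H2-D1 sequences also match each other, these counts are not of independent stretches. The GAAANNGAA letters were in B2m and Erap1 (7.13% of all stretches), and the gamma-activated letters in Psmb8 (7.02%). A match describes the letters and does not show a bound site.

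H2-K1 encodes a classical heavy chain and had 3 probes. Its brightest probe was saturated in 10 of 10 spots on each array. The lowest, median and highest processed signal of its spots were 57420, 65205 and 73000 over 9 spots used for CD4+ cells, and 62209, 64769 and 69559 over 10 spots for CD8+ cells. The 2 sets of spots overlapped, and since both were at the scanner's ceiling this probe gives no size for the difference. Its scaled difference was 0.16, against 0.18 added by the scaling alone, and over all 119 named probes saturated on both arrays the median was 0.16. H2-K1's other probes were not saturated. One read 25354 on the CD4+ and 27393 on the CD8+ array (1.22-fold after scaling, log2 difference 0.29), and the other 14187 and 18393 (1.47-fold, 0.55).

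H2-D1, the second classical heavy chain of this strain, had 2 probes of 1 spot each. The first read 68006 on the CD4+ array, where it was not saturated, and 66030 on the CD8+ array, where it was. The second was saturated on both arrays, at 62639 and 59655. Though not flagged, the CD4+ reading of the first lay among those of the saturated H2-K1 spots (57420 to 73000). Neither probe thus gives a size or a bound. The first was 1.099-fold higher on the CD8+ array after scaling. Its direction came from the scaling, since the log2 difference was 0.14 with it and -0.04 without. The classical and non-classical class I genes are close relatives, and which of them a probe of H2-K1 or H2-D1 also binds cannot be read from these files.

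B2m, the light chain shared by all class I molecules, had the best technical replication. One probe had 10 spots on each array, with 1 left out as an outlier on the CD8+ array. Its spots averaged 7933 ± 854 (SD over 10 spots) for CD4+ cells and 8991 ± 960 (SD over 9 spots) for CD8+ cells. The lowest, median and highest spots were 6270, 7979 and 9452 for CD4+ cells and 7688, 8960 and 10231 for CD8+ cells, so the 2 sets overlapped before scaling. Compared spot by spot at the same position, 9 of 9 pairs were higher on the CD8+ array, also without scaling. The scaled log2 difference of the probe was 0.36 (1.28-fold), and the SD of the pairs was 0.12. These are spots of the same 2 labelled samples and show the error of the array, not the spread between mice. The second B2m probe read 46913 and 49524, 1.19-fold higher on the CD8+ array.

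**Figure D1:**
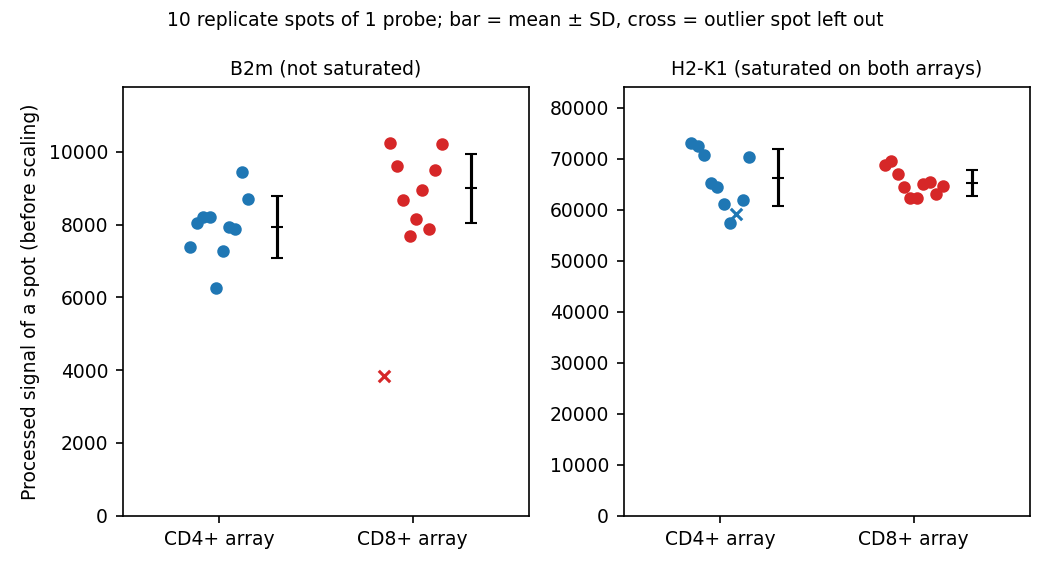
Processed signal before scaling of each of the 10 spots of 1 probe of B2m (left) and 1 of H2-K1 (right) on the CD4+ and CD8+ arrays, on axes from 0, with the mean and SD over the spots used as bars and outlier spots as crosses. B2m lay at 7933 ± 854 and 8991 ± 960, while the saturated H2-K1 spots lay at the scanner's ceiling on both arrays.

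The transporter subunits and tapasin had a median difference of 0.49, against 0.19 for the immunoproteasome subunits, over 3 genes each. Tap1 and Tap2 lay at lower levels than the immunoproteasome subunits, and the part of level in this contrast was not tested. Tap2, a subunit of the peptide transporter, read 2025 in CD4+ cells and 3250 in CD8+ cells, a scaled difference of 0.86 (1.82-fold), and 97.3% of all genes had a lower difference. Tap1, its partner, read 1471 and 1830, a difference of 0.49 (1.41-fold). Both were measured by 1 spot per array, for which the scanner software gives an error of 10% of the signal. Tapbp, which encodes tapasin, had 2 probes of different transcripts. The brighter read 22131 and 24244 (0.31, 1.24-fold) and the dimmer 510 and 754 (0.74, 1.67-fold), so the direction was shared and the size was not.

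Between different probes of a gene the log2 difference had an SD of 0.23 over 3922 genes, and between replicate spots of a probe 0.16 over 153 probes. Set against 0.23, 6 of the 10 genes had a larger difference, and 3 (Tap1, Tap2 and Erap1) a difference of more than 2 such SDs. Many other genes did too, since the quartiles of the differences of all genes were -0.18 and 0.20. Of all genes, 80.3% had a lower difference than B2m, the smallest of the 6, and 92.5% a lower one than Tap1, the smallest of the 3. The share of all genes past these SDs in either direction was not computed. Erap1, the trimming peptidase, read 2125 and 2777, a difference of 0.56 (1.48-fold), with 94.1% of all genes below it.

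The immunoproteasome subunits differed by less than 1.5-fold between the arrays. Psmb8 (LMP7) read 45836 and 46116 by one probe and 36185 and 38389 by the other, with scaled differences of 0.19 and 0.26. Psmb9 (LMP2) read 36912 in CD4+ cells and 34149 in CD8+ cells, the only unsaturated probe of the 13 that was lower on the CD8+ array before scaling, and its scaled difference was 0.07. Psmb10 (MECL-1) read 37025 and 40922, a difference of 0.32 (1.25-fold). By their brightest probes Psmb8 and Psmb9 thus lay within the SD between probes of a gene, and Psmb10 just beyond it.

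**Figure D2:**
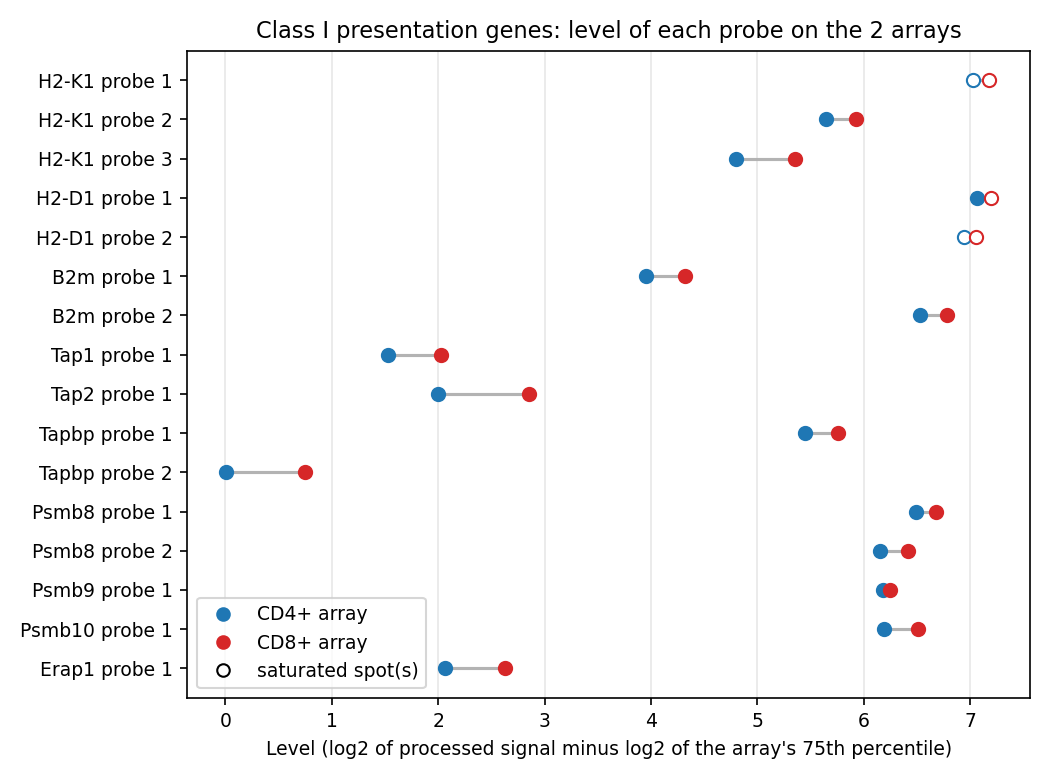
Level of each of the 16 probes of the 10 genes on the CD4+ array (blue) and the CD8+ array (red), as log2 of the processed signal relative to the array's 75th percentile, with open circles for saturated probes and a grey line joining the 2 arrays. Each red point lies to the right of its blue partner, by 0.07 for Psmb9 up to 0.86 for Tap2 (without scaling Psmb9 and the saturated probes lie to the left), and levels of different probes are not comparable with each other.

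The standard catalytic subunits that the immunoproteasome subunits replace were measured on the same arrays. Psmb5, the counterpart of Psmb8, had a difference of 0.05, Psmb6, the counterpart of Psmb9, one of -0.10, and Psmb7, that of Psmb10, one of -0.11. Within each pair the immunoproteasome gene had the higher difference, by 0.14, 0.17 and 0.43. Only the last exceeded the SD between probes, which is that of a single difference and too small a yardstick for a gap between differences. These gaps do not depend on a constant scaling of the arrays. The 11 other subunits of the 20S core had a median of 0.00, from -0.27 for Psma6 to 0.10 for Psma7, and 5 of 11 were higher on the CD8+ array.

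In the lists that follow, a small median turned with the scaling: the medians of the other antigen peptidases and of the class II genes kept their sign in all 12 other ways of processing, and those of the other lists did not. Partners of the loading complex were mixed. Tapbpl (TAPBPR), a tapasin relative that edits the peptides of class I molecules, was 2.17-fold higher on the CD8+ array (1.12), with levels of 2.63 on the CD4+ and 3.75 on the CD8+ array, and was the only one of 6 measured partners past 1.5-fold. By their brightest probes the chaperones Calr, Canx and Hspa5 had -0.02, 0.00 and 0.01, while another probe of Calr gave 0.32 and another of Canx 0.34. Uggt1, which returns misfolded glycoproteins to the calnexin cycle, had 0.39, and Ganab, a subunit of glucosidase II, 0.21 by its brightest probe and -0.14 by its other. The median of the 6 was 0.11, and 5 were above 0. Pdia3 had no named probe.

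Of 8 proteasome activator and assembly genes, 6 were higher on the CD8+ array, with a median of 0.05 and none past 1.5-fold. Psme1, a subunit of the interferon-inducible activator PA28, led with 0.45, its partner Psme2 had 0.18, and Psmg1, an assembly chaperone, had -0.19. Of 7 other peptidases, 5 were higher there, with a median of 0.24. Thop1, a cytosolic peptidase that degrades class I peptides, had 0.69 (1.62-fold) and Tpp2 -0.18. In the 4 genes of the translocation channel and export receptor the median was 0.01, from -0.05 for Sec61g to 0.18 for Sec61b.

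Regulators of class I transcription had a median of 0.03 over 12 measured genes, of which 7 were higher on the CD8+ array and none was past 1.5-fold in either direction. Irf1, an interferon-induced activator of these genes, had 0.24 by its brightest probe and 0.59 by its other, Rela likewise 0.38 and 0.60, Nfyc 0.40 and Nfyb -0.19, and Nlrc5 had no named probe. Interferon receptors and their kinases had a median of 0.13 over 7 genes, with Tyk2 at 0.50. Ifngr2 had -0.50 by its brightest probe and -0.60 by its other, and Jak2 likewise -0.09 and -0.76. Interferon-stimulated genes outside the class I pathway had a median of 0.03 over 15 genes, 9 of them higher on the CD8+ array. Past 1.5-fold on the CD8+ array were Gbp2 (0.77) and Ifit3 (0.72), and on the CD4+ array Ifit2 (-0.79) and Ifi44 (-0.60).

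**Figure D3:**
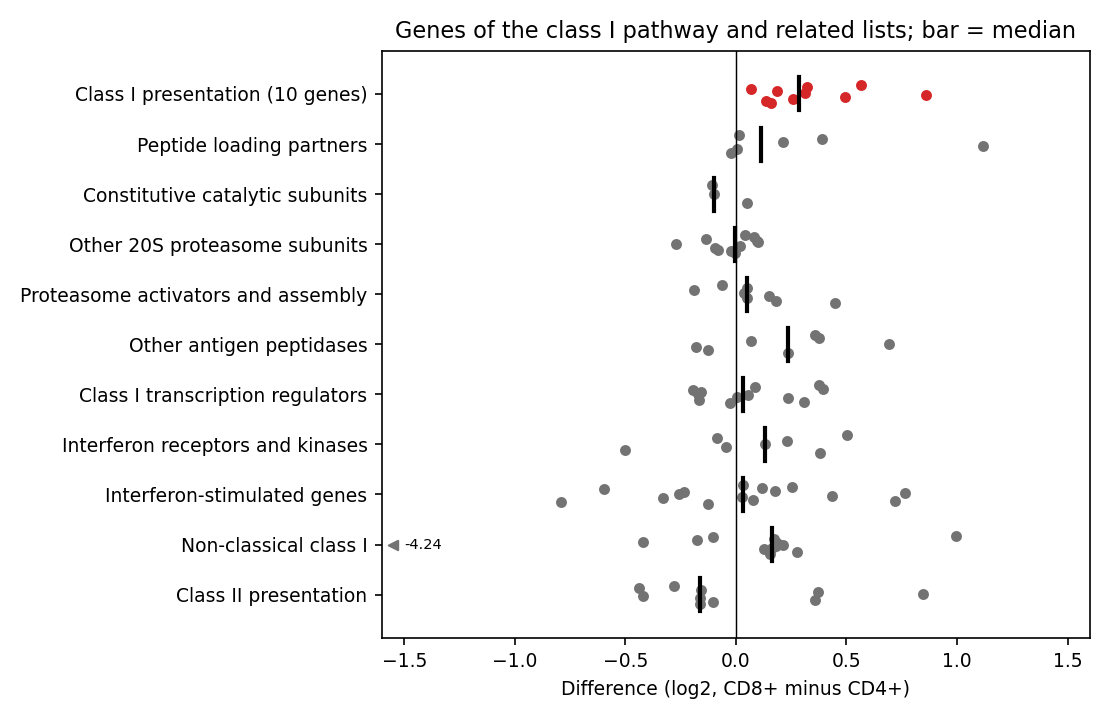
Log2 difference (CD8+ minus CD4+ array) of each measured gene, 1 point per gene, in the class I presentation genes (red) and 10 related lists (grey), with the median of each list as a bar and H2-Q1 at -4.24 beyond the axis. The 10 class I presentation genes lie from 0.07 to 0.86, the 11 other 20S subunits from -0.27 to 0.10.

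Among non-classical class I genes, 9 of 13 measured on both arrays were higher on the CD8+ array, with a median of 0.17. H2-T23, H2-Q2, H2-Q7 and H2-Q10 were at 0.13 to 0.21, from brightest probes that were saturated on at least 1 array, and so give no size. Other probes of H2-Q2 and H2-Q10 gave up to 0.29 and 1.47. H2-Q1 went far the other way (-4.24), by 1 probe whose CD8+ level of -4.41 was near that array's lowest level well above background (-4.93). Fcgrt, the neonatal Fc receptor, had 0.996. H2-T3, by 1 probe, was well above background in CD8+ cells (-4.14, also near that floor) but not in CD4+ cells. Set against the CD4+ array's lowest level well above background, H2-T3 was 2.32-fold higher in CD8+ cells. That level need not be the limit of this probe. Class II presentation genes had a median of -0.16, and 3 of 10 were higher on the CD8+ array. H2-Oa had 0.84 (1.80-fold), while Cd74, the invariant chain, had -0.16 and Ciita, the class II transactivator, -0.44.

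Of the 10 genes, 7 lie on chromosome 17. Of these, Psmb9, Tap1, Psmb8 and Tap2 follow each other directly in the RefSeq gene order, flanked by class II genes. Along that order the differences were 0.07, 0.49, 0.19 and 0.86, with H2-DMb1 before them at -0.16 and H2-Ob after them at 0.37. Tap1 and Psmb9, which share the stretch of 225 bases printed above, thus differed by 0.49 and 0.07.

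The 2 arrays could be told apart by their labels, with Cd8a 105.8-fold higher on the CD8+ array and Cd4 4.11-fold higher on the CD4+ array. Of 10 T cell markers 8 were higher on the CD8+ array. Their summed level, in units of each array's 75th percentile, was 659 in CD4+ and 652 in CD8+ cells. This sum includes 2 genes, Cd3d and Cd6, whose probes were saturated on at least 1 array. Of the B cell markers 10 of 10 were higher on the CD8+ array, with a median of 0.63 and none below background on either array. Their summed level was 19.9 on the CD4+ and 30.8 on the CD8+ array. Platelet markers had a median of 0.61, with 3 of 4 measured on both arrays higher and summed levels of 0.527 and 0.771. Plasma cell markers, of the same lineage as B cells, went the other way, with a median of -0.73, 0 of 5 higher and summed levels of 5.39 and 3.23. The 5 were uneven, with Prdm1 at -2.28, Irf4 at -1.63, Xbp1 at -0.73, Jchain at -0.52 and Sdc1 at -0.46. Tnfrsf17 was above background on the CD4+ array alone. Macrophage or monocyte markers had a median of -0.13 (1 of 6 higher, 58.5 and 50.6), neutrophil markers -0.02 (1 of 3, 2.40 and 2.82) and erythroid markers -0.12 (1 of 3, 5.41 and 4.45). Dendritic cell markers had a median of -1.15 (1 of 6 higher, 7.75 and 3.54) and NK cell markers -1.17 (1 of 5 higher, 26.4 and 13.2). The part of these cells in the class I differences was not tested. In sorted bulk RNA a change in the share of a cell type and a change in RNA per cell cannot be told apart.

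The spread of the differences over all genes changed with the level of a gene. With all genes ranked by level and split into 5 bins of near-equal size, 7 of the 10 genes lay in the highest bin and 3 (Tap1, Tap2 and Erap1) in the next. The median difference of all genes was 0.04 in the highest bin, 0.05 in the next and -0.07 in the lowest. In the same bins the SD of the differences was 0.34, 0.38 and 0.60. In the highest bin 59.9% of genes were above 0 and 2.76% at least 1.5-fold higher on the CD8+ array, and in the next 59.1% and 3.97%. In 4 of the 4 genes with several unsaturated probes the dimmer probe gave the larger difference, as it did in 56.9% of 3922 genes. For H2-K1 the dimmer of these probes exceeded the brighter by 0.26, for B2m by 0.10, for Tapbp by 0.43 and for Psmb8 by 0.08.

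**Figure D4:**
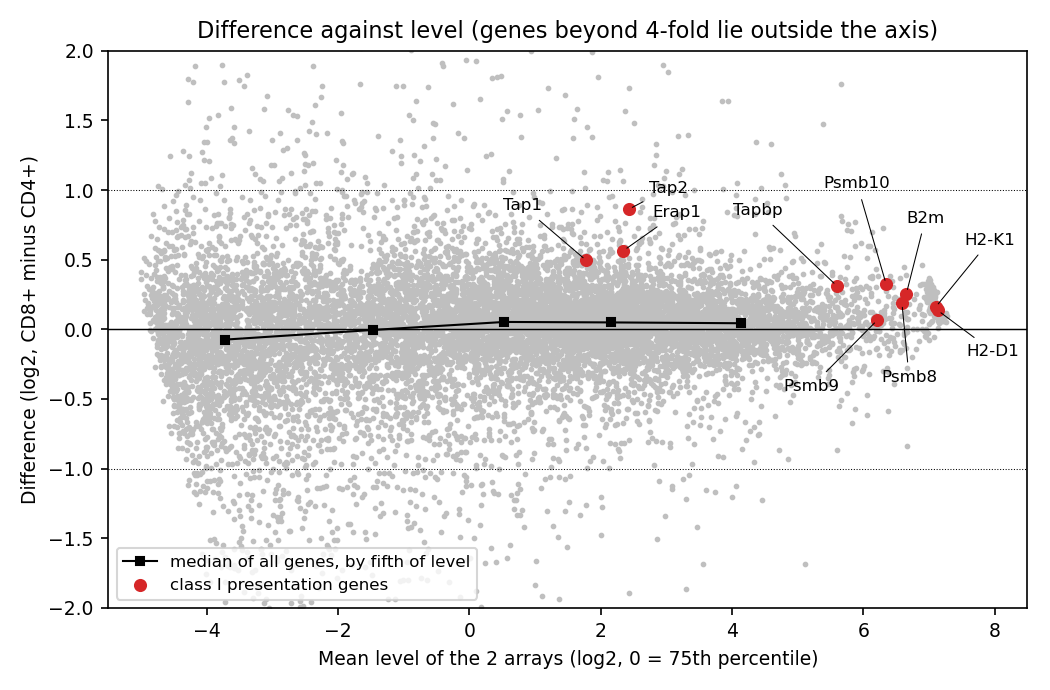
Log2 difference (CD8+ minus CD4+ array) against the mean level of the 2 arrays for each gene measured on both (grey), with the class I presentation genes in red, the median of each of 5 level bins of all genes in black and dotted lines at 2-fold. Tap2 (0.86), Erap1 (0.56) and Tap1 (0.49) stand above most genes of their level, and the other 7 genes lie between 0.07 and 0.32 at high level.

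The 75th percentile was 508 for CD4+ and 449 for CD8+ cells, so scaling raised every difference by 0.18. Tap2, Erap1, Tap1, Psmb10, Tapbp, B2m and Psmb8 were higher on the CD8+ array in 12 of 12 other ways of processing, with ranges of 0.68 to 1.003 for Tap2, 0.39 to 0.71 for Erap1 and 0.32 to 0.64 for Tap1. Psmb9 fell below 0 in 3 (quantile -0.02, loess -0.03, no scaling -0.11), and H2-K1 and H2-D1, by their saturated probes, in 2 each (quantile and no scaling). The median of the 10 genes exceeded the median of all genes by 0.26 in the main scaling and by 0.16 (quantile) to 0.39 (dimmest probe) in the others. Of the related lists, the median of the 20S subunits ran from -0.18 to 0.14 and that of the interferon-stimulated genes from -0.15 to 0.17, while that of the class II genes stayed between -0.34 and -0.02.

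**Figure D5:**
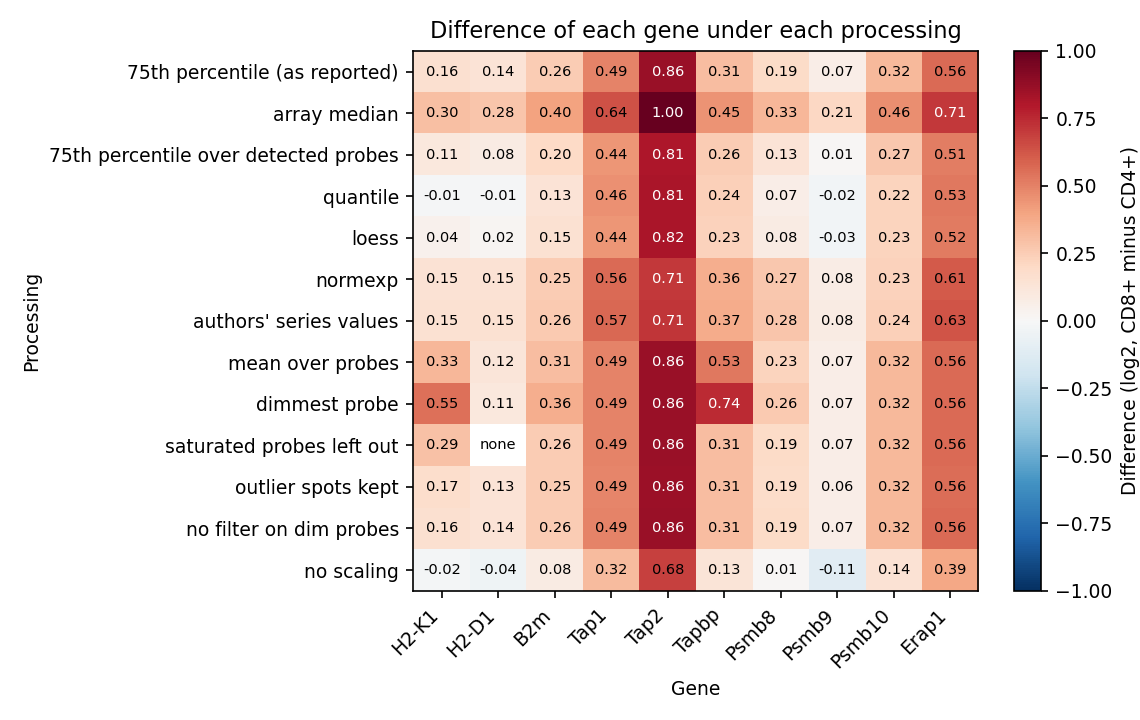
Log2 difference (CD8+ minus CD4+ array) of each of the 10 genes (columns) under the main processing and the 12 other ways (rows), with red for higher on the CD8+ array, blue for lower, and none where no unsaturated probe was left. Tap2 stays between 0.68 and 1.003, and negative values occur for H2-K1, H2-D1 and Psmb9 alone.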

How the data were processed

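Cy3-labelled RNA of 2 samples was hybridised to 1-colour Agilent mouse arrays, per the labels. The intensity in the deposited files is the authors' scanner output, made with Feature Extraction 10.1.1.1 per the file headers (9.1 per the submitters' processing notes). It is background-subtracted and detrended, with no scaling between the arrays. The deposited series intensity equals the median spot signal at 45018 of 45018 spots on each array. The flags for saturation and background, of the unit "other", were used as deposited.

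Here log2 of the processed signal was taken, outlier spots (99 and 92) and control spots were left out, and the 75th percentile over non-control spots was subtracted. The 212 saturated spots of either array stayed in. Replicate spots were averaged as log2 values, and a probe counted as well above background, or saturated, when at least 50% of its spots were. A gene took its brightest probe well above background on both arrays. Spots deposited as well above background made up 63.1% for CD4+ and 58.6% for CD8+ cells. For a gene above background on 1 array, the other array entered at its lowest level among probes well above background or the probe's own, if higher. Probes were named by accession through a RefSeq table of GRCm38.p6, and 24836 of 41174 (60.3%) had 1 symbol. The headers name another build, so no coordinate of a probe is given. Upstream sequences come from the same RefSeq build, with 9 of 10 genes matched (not Tap2), and the motifs were chosen with the sequences in view.

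The genes, lists and alternatives were chosen with earlier results of these data known. Named genes were the 10 genes, and from each pathway list those past 1.5-fold and the largest difference in each direction. Canx, Hspa5, Uggt1, Ganab, Psme2, Irf1, Rela, Jak2, Cd74, H2-T23, H2-Q2, H2-Q7, H2-Q10 and the flanking genes are named besides. The computation was tested on simulated data. Alternatives were another scaling (median, detected probes, quantile, loess, none), normexp (offset 50, on the median signal since no mean signal is given), the series values, other rules for probes, saturated or outlier spots, and no filter. The number of arrays limits the precision. Python 3.11.15, Biopython 1.88, R 4.3.3 and limma 3.58.1 were used.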

Additional observations from a re-analysis of the deposited data

How the results depend on the processing

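The count of genes at least 1.5-fold higher on the CD8+ array was 1 in the main scaling, against 5.54% of all genes. It rose to 3 with median scaling, against 9.21% of all genes. It rose to 2 with normexp (3.52% of all genes), with the authors' series values (3.94%) and with the dimmest probe (6.13%). The count at least 2-fold higher rose from 0 to 1 with median scaling (Tap2, 1.003). Counts in favour of the CD4+ array were 0 in all 12 alternatives. For these counts and the 2-fold counts the share of all genes was computed in the main scaling alone. The number of genes higher on the CD8+ array was 10 except in 4 alternatives. It was 7 with quantile (52.2% of all genes higher), 9 with loess (48.4%) and 7 with no scaling (27.6%, added after the data were seen). It was 9 of 9 with saturated probes left out (53.8%), since H2-D1 then has no value. Where it was 10, the share of all genes higher ran from 45.6% to 71.7%. The median of the 10 genes ranged from 0.10 to 0.43. Under the alternatives 407 values of single genes, lists and all genes were compared, as log2 differences, counts and percents. Of these, 379 moved by no more than the technical SD or 1.5 times. This count is no measure of stability, since much of it was fixed by the limit. Another constant scaling, or none, shifted every log2 difference by at most 0.18, below the SD of 0.23. Genes with 1 probe kept their value under the rules for probes. A change of sign within that SD counted as not moved. Tap2 was the only one of the 10 genes at least 1.5-fold apart in the main scaling, and its sign did not change. The smaller differences of H2-K1, H2-D1 and Psmb9 did change sign. So did the list medians, except those of the other antigen peptidases and the class II genes. Detector saturation limits H2-K1 and H2-D1. No paired analysis was possible because each cell type has 1 array and the labels give no replicate numbers.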
